A study of Bos taurus with 10 samples.

Results

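The genes described here are the RNA-binding motif (RBM) genes of bovine (Bos taurus) oviductal organoids, chosen as every gene of the table whose name is RBM followed by a number, with RBM3 left out. The rule used names alone and found 36 of 26804 genes. Organoids are small hollow cultures that oviduct epithelium forms when it is held in a gel, and every replicate pooled the oviducts of 2 animals. The compared groups were organoids kept at 42 °C over the final day of culture (heat stress, HS; libraries 42C A, C, D and E, n = 4) and organoids kept at 37 °C throughout (thermoneutral; libraries 37C A to E, n = 5). Both groups came from the same oviducts and shared the same culture, so that libraries with the same letter are paired. Library 42C B is given beside the others but enters no mean or test, except where all 10 libraries or the pairs are named, because the study dropped 1 HS replicate that did not cluster with its group. Its text does not name it, and 42C B was taken, since a later plot lacks it. The study's mean for the heat shock gene HSPA1A at 42 °C, 4367.03 TPM, is also that of 42C A, C, D and E. The labels give no age, breed or treatment other than temperature.

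RBM proteins carry RNA recognition motifs, the most common fold by which proteins bind single-stranded RNA. They act at most steps in the life of an mRNA. Some sit in the spliceosome or steer the choice of splice sites, others guide the methyltransferase that writes N6-methyladenosine (m6A), mark spliced mRNA, carry it out of the nucleus or hand it to decay, and some work in the nucleolus on ribosomal RNA. The names come from the shared motif, so the members are not a single pathway. Their use in the oviduct is little described, but splicing and mRNA export in general are known to be sensitive to heat.

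Values are TPM, a length-corrected share of the library scaled to the same total, so that levels can be set side by side between genes. RBM20, known for splicing of titin in heart muscle, and RBM46, a germ cell protein, were listed at 0 in all 10 libraries. RBM24, a muscle splicing regulator, reached at most 0.540 TPM and RBM44, a germ cell protein, at most 0.0758 TPM. These 4 genes were not tested. The other 32 members, of 12149 genes tested, were at 1 TPM or more in every library, with the single exception of RBM41 in 42C B (0.0737 TPM). Their mean levels spanned a wide range, with 5 members at 100 TPM or more, 23 from 10 to 100 TPM and 4 below 10 TPM at 42 °C, against 1, 22 and 9 members at 37 °C. RBM4 (99.1 TPM) and RBM42 (95.9 TPM) were just under 100 TPM at 37 °C. The median of the members' mean levels was 35.8 TPM at 42 °C and 21.5 TPM at 37 °C. The median tested gene also had a higher share at 42 °C, as given below.

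The libraries followed their labels. HSPA1A, the inducible heat shock protein of 70 kDa class, stood at 1830 to 5614 TPM in the 4 compared HS libraries and 7333 TPM in 42C B, against 402 to 476 TPM at 37 °C. On the first principal component of all tested genes, which carried 58.9% of the variance, 42C A (2.17) lay between the other HS libraries (51.2 to 72.2) and the thermoneutral ones (-49.5 to -43.5), and 42C B (78.1) stood apart on the second. All 5 epithelial markers were at 1 TPM or more in all 10 libraries, and their summed level was 4856 to 6291 TPM in the 4 compared HS libraries and 2479 TPM in 42C B, against 6133 to 7556 TPM at 37 °C. KRT8 and KRT18 made up most of this sum, and EPCAM (827 to 1190 TPM at 42 °C, against 521 to 752 TPM at 37 °C), CDH1 (341 to 448 TPM at 42 °C, against 178 to 239 TPM at 37 °C) and PAX8 were higher in the 4 compared HS libraries. All 5 leukocyte and all 5 fibroblast markers were below 1 TPM in every library, with 2 of the leukocyte markers at 0 throughout. The 6 ciliated cell markers summed to 10.2 to 19.2 TPM in the 4 compared HS libraries and 27.8 TPM in 42C B, against 23.6 to 64.7 TPM at 37 °C. FOXJ1 alone gave 24.8 TPM in 42C B. Its levels in the 4 compared HS libraries (7.94 to 16.2 TPM) overlapped those at 37 °C (9.50 to 30.0 TPM). The 5 muscle markers in the table summed to 1.59 to 2.92 TPM in the 4 compared HS libraries and 14.8 TPM in 42C B, against 3.49 to 10.3 TPM at 37 °C. CNN1 alone gave 12.9 TPM in 42C B. Of the 4 germ cell markers, DDX4 and DAZL were at 0 in every library, and the list summed to 1.30 to 12.4 TPM at 42 °C, against 0.478 to 4.70 TPM at 37 °C. In such bulk libraries, fewer cells of a type and less RNA per cell cannot be told apart, and the part of the ciliated and epithelial marker levels in the results below was not tested.

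With RBM3 left out, 8 RBM genes rose at 42 °C and none fell by the test used throughout. A gene was called when its limma test on log2(TPM + 1) gave a Benjamini-Hochberg adjusted p below 0.05 over all tested genes and a log2 difference (42 °C minus 37 °C) of at least 1 in size. The 8 of 32 tested members were RBM15, RBM27, RBM38, RBM4B, RBM18, RBM28, RBM33 and RBM12B, a share of 25%, against 15.8% of all tested genes called higher. No member was called lower, against 7.14% of all tested genes. RBM3, left out by the rule, was itself called lower (difference -5.48, limma adjusted p = 1.02e-07). The absence of lower calls therefore holds only for the set without it. At an adjusted p below 0.05 with no limit on size, 21 members were higher (65.6%), against 45.1% of all tested genes, and 1, RBM43, was lower, against 18.1%, a split that changes with the scaling of the libraries. The 4 HS libraries lay wholly above the 5 thermoneutral ones for 18 of 32 members, against 36.6% of all tested genes, and wholly below them for none, against 12.3%. The median difference was 0.51 over the members and 0.30 over all tested genes, whose quartiles were -0.23 and 0.79. Of the members, 28 had a positive difference and 21 lay above the median of all genes. Positive differences were not counted over all tested genes. These shares and medians are descriptions of a set of genes chosen with earlier results known, with no test of the set.

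The count depends on how the libraries are scaled. TPM are shares of a fixed total, and the median tested gene had a higher share at 42 °C. After median-ratio scaling, which puts the median of all genes at -0.01, 4 members were called higher (12.5%), against 7.59% of all tested genes, and none lower, against 11.8%. After quantile normalization, with the median of all genes at 0.07, 4 members were called higher, against 8.07% of all tested genes, and none lower, against 10.3%. RBM15, RBM27 and RBM38 were called under all 3 scalings. RBM4B kept its call under median-ratio scaling and RBM18 under quantile normalization, while RBM12B, RBM28 and RBM33 were called under neither. The median difference of the members was 0.18 under median-ratio scaling and 0.25 under quantile normalization. It was above the median of all genes under each scaling. At an adjusted p below 0.05 with no limit on size, 13 members were higher and 5 lower after median-ratio scaling, against 28.8% and 29.8% of all tested genes, and 15 were higher and 5 lower after quantile normalization, against 31.3% and 25.8%. The 5 lower members were RBM8A, RBM10, RBM19, RBM34 and RBM43 in both cases.

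**Figure D1:**
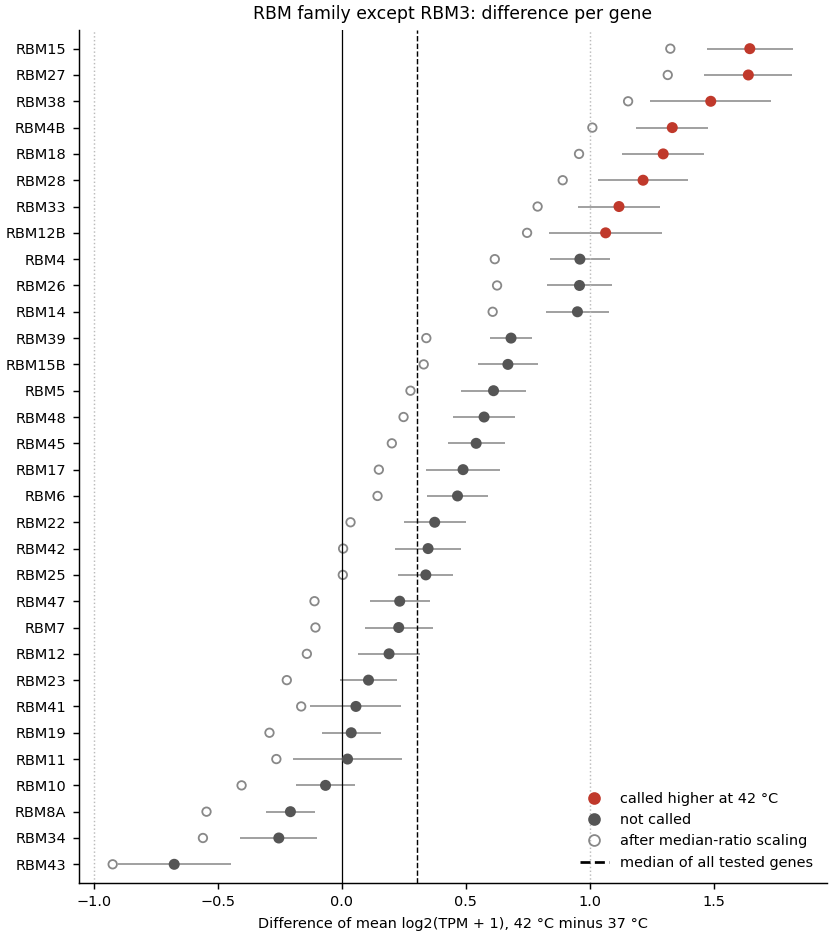
Difference of mean log2(TPM + 1) between 42 °C and 37 °C for each of the 32 tested RBM genes, with filled points for the TPM values (red where called higher), open points after median-ratio scaling, and a dashed line at the median of all tested genes (0.30). The 8 called members lie between 1.06 and 1.64, and the open points lie to the left of the filled ones, with 7 members changing from positive to negative.

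The methylation, decay and export group held 8 members, of which 3 rose, none fell and 5 were not called. Their median difference was 0.95. RBM15 (ENSBTAG00000012555), an adaptor that recruits the m6A writer complex to its RNA targets, had the largest difference of the tested members. Its level was 17.5, 29.1, 27.5 and 30.2 TPM in 42C A, C, D and E, with 26.8 TPM in 42C B, against 7.89, 6.24, 6.91, 8.61 and 7.96 TPM in 37C A to E. Every HS library was above every thermoneutral one, and 42C A was the lowest of the HS libraries. The means were 26.1 ± 5.83 TPM at 42 °C and 7.52 ± 0.937 TPM at 37 °C (SD, n = 4 and 5, as for all means below), a log2 difference of 1.64 (SE 0.17, limma adjusted p = 3.49e-05). RBM15B, its relative with the same adaptor role, was higher by less, with 69.6 ± 7.62 TPM at 42 °C, against 43.4 ± 5.23 TPM at 37 °C (difference 0.67, limma adjusted p = 0.000571), and was not called.

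RBM27 and RBM26 are related zinc finger proteins that link the nuclear exosome, a decay machine, to polyadenylated RNA. RBM27 (ENSBTAG00000011642) was at 23.96, 31.9, 40.5 and 33.1 TPM in 42C A, C, D and E, with 27.5 TPM in 42C B, against 9.59, 7.53, 8.23, 12.3 and 10.7 TPM in 37C A to E. The groups were far apart, and even 42C A, the lowest HS library, was well above 37C D, the highest thermoneutral one. The means were 32.4 ± 6.77 TPM at 42 °C and 9.68 ± 1.92 TPM at 37 °C (difference 1.64, SE 0.18, limma adjusted p = 3.94e-05). RBM26 was at 28.8, 35.9, 41.5 and 38.8 TPM in 42C A, C, D and E, with 24.1 TPM in 42C B, against 16.5, 17.8, 18.1, 21.1 and 16.9 TPM in 37C A to E. Its groups did not overlap either, and it had a difference of 0.96 (SE 0.13, limma adjusted p = 0.00012) that stayed just under the size asked for. It was called without 42C A (1.06) and without 37C D (1.01).

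RBM33 (ENSBTAG00000010243), which takes part in mRNA export from the nucleus, was the third of this group to rise. Its level was 21.5, 35.8, 33.8 and 27.8 TPM in 42C A, C, D and E, with 34.6 TPM in 42C B, against 12.4, 12.6, 13.04, 16.0 and 10.99 TPM in 37C A to E. The groups did not overlap, and 37C D was the highest thermoneutral library. The difference was 1.12 (SE 0.16, limma adjusted p = 0.00018). RBM14, a transcriptional coactivator and paraspeckle protein, was abundant at both temperatures, with 130 ± 19.7 TPM at 42 °C and 66.5 ± 7.26 TPM at 37 °C (difference 0.95, limma adjusted p = 0.00011). The lowest HS library, 42C B at 98.2 TPM, was above the highest thermoneutral one at 74.4 TPM. RBM14 passed the size threshold without 42C A (1.07), and under none of the other single-library omissions. RBM7, which carries RNA to the exosome in the nuclear exosome targeting complex, had a difference of 0.23 that did not pass the test (limma adjusted p = 0.161). RBM8A, a core protein of the exon junction complex that marks spliced mRNA, averaged 44.1 ± 3.12 TPM at 42 °C, against 51.1 ± 3.44 TPM at 37 °C, a difference of -0.21 (limma adjusted p = 0.0828), which was -0.55 after median-ratio scaling (limma adjusted p = 0.00123).

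The alternative splicing regulators numbered 13, of which 11 were tested, 2 rose, none fell and 9 were not called. Their median difference was 0.47. RBM38 (ENSBTAG00000008105), a target of p53 that binds the mRNA of the cell cycle inhibitor p21 and also regulates splicing, had the largest standard error of the 8 risen genes. It was at 27.0, 71.3, 68.1 and 43.2 TPM in 42C A, C, D and E, with 57.7 TPM in 42C B, against 18.5, 15.2, 18.7, 15.8 and 16.0 TPM in 37C A to E. All HS libraries were above the thermoneutral range, which was narrow, and 42C A was the closest to it. The means were 52.4 ± 21.1 TPM at 42 °C and 16.8 ± 1.63 TPM at 37 °C (difference 1.49, SE 0.24, limma adjusted p = 0.000333). With each library left out in turn the difference stayed between 1.31 and 1.76.

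RBM4 and RBM4B are near-identical copies that regulate alternative splicing, and reads could have been split between them, so that the level of each is uncertain. In the RefSeq annotation of another bovine assembly (ARS-UCD2.0) RBM14, RBM4 and RBM4B follow each other with 0 protein-coding genes between. RBM4B (ENSBTAG00000000423) was at 18.4, 24.6, 25.3 and 26.1 TPM in 42C A, C, D and E, with 16.8 TPM in 42C B, against 8.74, 9.56, 6.95, 9.70 and 8.76 TPM in 37C A to E. The groups did not overlap, and the difference was 1.33 (SE 0.15, limma adjusted p = 4.1e-05). RBM4 was the most abundant member at 42 °C, with 196 ± 33.4 TPM at 42 °C and 99.1 ± 4.65 TPM at 37 °C. It was at 149, 222, 216 and 196 TPM in 42C A, C, D and E, with 204 TPM in 42C B, against 92.1 to 103 TPM at 37 °C, again with no overlap. Its difference of 0.96 (SE 0.12, limma adjusted p = 7.92e-05) fell short of the call, which it reached without 42C A (1.09).

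RBM39, a splicing factor related to U2AF2, had the smallest standard error of the tested members. It was at 107, 105, 112 and 107 TPM in 42C A, C, D and E, against 61.7, 66.3, 67.5, 71.4 and 68.1 TPM in 37C A to E, while 42C B stood below both groups at 36.2 TPM. The 4 compared HS libraries agreed closely and did not overlap the thermoneutral ones. The difference was 0.68 (SE 0.08, limma adjusted p = 7.31e-05). With all 10 libraries it was 0.37 and did not pass the test (limma adjusted p = 0.28). RBM23, its close relative, had a difference of 0.11 (limma adjusted p = 0.436).

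RBM5, RBM6 and RBM10 are related splicing regulators. RBM6 (ENSBTAG00000006328), which the study named as a candidate binder of a miRNA sequence motif, was at 15.4, 18.1, 15.3 and 18.1 TPM in 42C A, C, D and E, against 10.5, 11.2, 11.5, 12.6 and 13.3 TPM in 37C A to E, with 8.84 TPM in 42C B. The 4 HS libraries were above every thermoneutral one, whereas 42C B was below them all. Its difference was 0.47 (SE 0.12, limma adjusted p = 0.00646), smaller than a call requires, and 0.14 after median-ratio scaling (limma adjusted p = 0.281). RBM5 averaged 39.6 ± 3.26 TPM at 42 °C, against 25.8 ± 3.95 TPM at 37 °C (difference 0.61, limma adjusted p = 0.00166), and neighbours RBM6 in the RefSeq annotation with 0 protein-coding genes between. After median-ratio scaling RBM5 had a difference of 0.28 (limma adjusted p = 0.0507). RBM10 did not pass the test, with 47.8 ± 7.14 TPM at 42 °C and 49.8 ± 3.38 TPM at 37 °C (difference -0.07, limma adjusted p = 0.644). Its difference was -0.40 after median-ratio scaling (limma adjusted p = 0.0099) and -0.31 after quantile normalization (limma adjusted p = 0.0484).

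RBM47 (ENSBTAG00000002356), an epithelial RNA-binding protein known as a cofactor of APOBEC1 in mRNA editing, was the most abundant member at 37 °C. It was at 218, 177, 199 and 149.8 TPM in 42C A, C, D and E, against 146, 146, 156, 184 and 153 TPM in 37C A to E, and at 95.4 TPM in 42C B. The groups overlapped, with 42C E inside the thermoneutral range and 42C B below it. The difference of 0.23 did not pass the test (SE 0.12, limma adjusted p = 0.112). RBM25, a regulator of splice site choice, averaged 35.4 ± 1.52 TPM at 42 °C, against 27.9 ± 3.06 TPM at 37 °C (difference 0.34, limma adjusted p = 0.019), and with a replicate block, the letter as a term of the fit, its limma adjusted p was 0.0823. Its difference was 0.17 with all 10 libraries (limma adjusted p = 0.479) and 0.0035 after median-ratio scaling (limma adjusted p = 0.98). RBM11, a tissue-restricted splicing regulator, had a difference of 0.02 (limma adjusted p = 0.935).

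Of the 5 spliceosome-associated members none was called, and their median difference was 0.37. RBM48 and RBM41 belong to the minor spliceosome, which removes a small class of introns. RBM48 averaged 19.2 ± 2.51 TPM at 42 °C, against 12.5 ± 0.748 TPM at 37 °C (difference 0.57, limma adjusted p = 0.00205) with no overlap, whereas RBM41, near 2 TPM in both groups, had a difference of 0.06 (limma adjusted p = 0.804). RBM17, which acts at the 3′ splice site, averaged 66.7 ± 15.4 TPM at 42 °C, against 46.2 ± 1.44 TPM at 37 °C (difference 0.49, limma adjusted p = 0.0137), and the groups overlapped through 42C A. RBM22, a protein of the catalytic core, had a difference of 0.37 (limma adjusted p = 0.0211), and 0.28 with all 10 libraries (limma adjusted p = 0.167). RBM42, associated with the tri-snRNP, was at 89.7, 135, 133 and 138 TPM in 42C A, C, D and E, against 84.0 to 103 TPM at 37 °C, and at 199 TPM in 42C B. It was the 1 member that 42C B held above all 9 other libraries. Its adjusted p of 0.0401 by limma became 0.0773 with the replicate block. After median-ratio scaling the differences were 0.25 for RBM48, 0.15 for RBM17, 0.03 for RBM22 and 0.005 for RBM42. None of them then passed the test (limma adjusted p = 0.0887, 0.374, 0.803 and 0.979).

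Of the 3 nucleolar members, 1 rose. RBM28 (ENSBTAG00000017001), a factor of ribosome biogenesis, was at 15.4, 28.0, 28.4 and 28.0 TPM in 42C A, C, D and E, with 22.1 TPM in 42C B, against 9.43, 8.99, 11.3, 10.1 and 9.66 TPM in 37C A to E. The other compared HS libraries were almost equal and 42C A lay well below them, still above the thermoneutral range. The difference was 1.21 (SE 0.18, limma adjusted p = 0.000196). RBM19, also needed for ribosome biogenesis, had a difference of 0.04 (limma adjusted p = 0.798), which was -0.29 after median-ratio scaling (limma adjusted p = 0.0456). RBM34 had a difference of -0.25 (limma adjusted p = 0.172), which was -0.56 after median-ratio scaling (limma adjusted p = 0.0119).

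Of the 5 other or little studied members, 2 rose. RBM18 (ENSBTAG00000016367) was at 64.7, 102, 114 and 86.1 TPM in 42C A, C, D and E, with 69.2 TPM in 42C B, against 36.0, 28.3, 38.4, 39.2 and 39.5 TPM in 37C A to E. It was the most abundant of the 8 risen members, with no overlap and a difference of 1.30 (SE 0.17, limma adjusted p = 8.59e-05). RBM12B (ENSBTAG00000013408) was at 9.16, 21.6, 17.7 and 22.4 TPM in 42C A, C, D and E, with 12.6 TPM in 42C B, against 7.05, 7.09, 6.56, 8.51 and 8.60 TPM in 37C A to E. Here 42C A was only slightly above the thermoneutral range. The difference of 1.06 (SE 0.23, limma adjusted p = 0.00184) fell below 1 without 42C C (0.95) or without 42C E (0.93), so that this call rests on single libraries. RBM45 averaged 73.1 ± 9.66 TPM at 42 °C, against 49.7 ± 3.74 TPM at 37 °C (difference 0.54, limma adjusted p = 0.00168), and RBM12 had a difference of 0.19 (limma adjusted p = 0.199). For RBM45 the difference was 0.39 with all 10 libraries (limma adjusted p = 0.087) and 0.20 after median-ratio scaling (limma adjusted p = 0.109).

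RBM43 was the only member lower at an adjusted p below 0.05 in TPM as deposited, where the scalings added RBM8A, RBM10, RBM19 and RBM34, and it was not called. It was at 2.88, 2.02, 1.09 and 3.005 TPM in 42C A, C, D and E, with 1.19 TPM in 42C B, against 2.94, 3.31, 4.42, 5.09 and 4.72 TPM in 37C A to E. The groups overlapped, since 42C E was above 37C A. The difference was -0.68 (SE 0.23, limma adjusted p = 0.0224), on a scale that understates changes at such low levels.

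**Figure D2:**
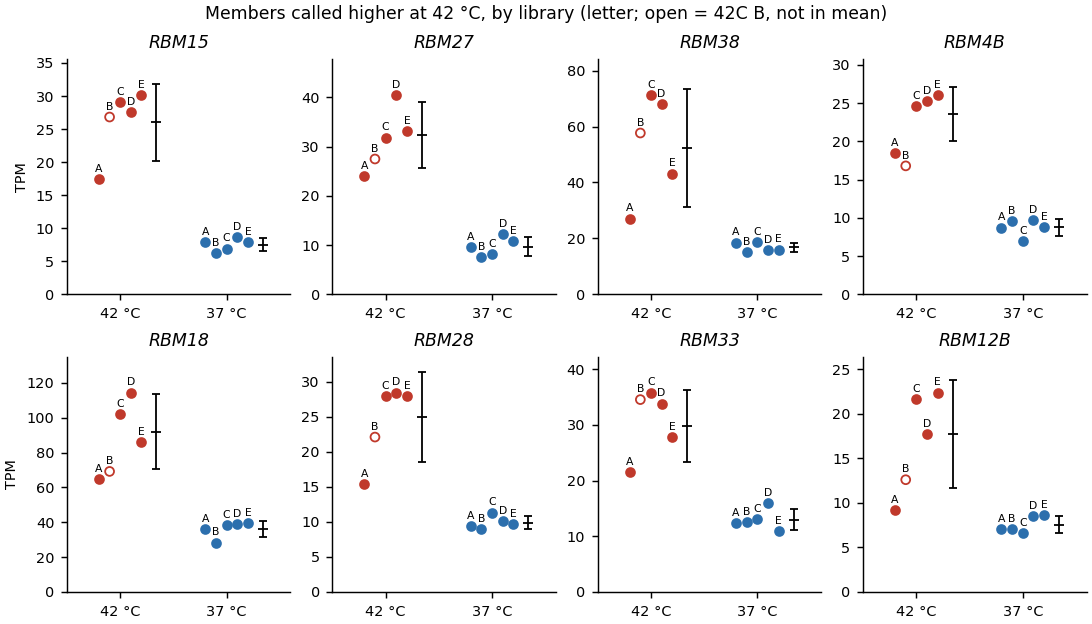
TPM of the 8 members called higher, by library, with HS libraries (red; the open point is 42C B, not in the mean) left of thermoneutral libraries (blue), letters naming the replicates, and bars giving mean and SD (n = 4 at 42 °C and 5 at 37 °C). In every panel all red points lie above all blue ones, and 42C A is the lowest filled red point.

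Among libraries, 42C A was the lowest of the 4 compared HS libraries for all 8 risen members and for 18 of the 32 tested, a count not made over all tested genes. It was still above every thermoneutral library for those 8, and for 22 of the 32 tested, against 50.2% of all tested genes. In the pairs of the same letter, all 8 risen members were higher at 42 °C in all 5 pairs, 42C B included. Their median log2 difference was 0.79 in pair A and 1.32, 1.63, 1.47 and 1.41 in pairs B to E, as a description of genes chosen for being higher. Over all 32 tested members the medians were 0.52, 0.16, 0.60, 0.48 and 0.61 in pairs A to E, against 0.32, -0.30, 0.31, 0.24 and 0.33 over all tested genes. In pair B 17 of the 32 members were higher at 42 °C, against 25 to 27 in the other pairs, again with no count over all tested genes. Leaving 42C A out gave 11 members called higher, the 8 above with RBM4, RBM14 and RBM26.

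Library 42C B differed from the other HS libraries across all genes. There, 15 of the 32 tested members were above the whole thermoneutral range and 14 below it, against 29.4% and 52.0% of all tested genes. The other HS libraries had 22 to 24 members above and 2 to 4 below, against 50.2% to 54.8% and 19.7% to 27.0% of all tested genes. In 42C B, 12 members were lower than in all 9 other libraries, among them RBM12 (3.33 TPM, against 19.9 to 25.4 TPM at 37 °C), RBM39 and RBM47. The share of all tested genes that were lowest in 42C B was not counted. The 8 risen members were above the thermoneutral range in 42C B too, and with all 10 libraries 7 of them stayed called, RBM12B excepted (0.99).

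The members summed to 0.144%, 0.179%, 0.179% and 0.169% of TPM in 42C A, C, D and E, with 0.134% in 42C B, against 0.105% to 0.116% at 37 °C. The means were 0.168% ± 0.0166 at 42 °C and 0.109% ± 0.00464 at 37 °C, and the groups did not overlap. These sums are of TPM as deposited, in which the median difference of all tested genes was itself 0.30, and no scaled sum was made. Of the 5 members at 100 TPM or more at 42 °C, RBM4, RBM14, RBM39 and RBM42 were higher at an adjusted p below 0.05 and RBM47 did not pass the test. RBM42 did not pass it after median-ratio scaling (0.005, limma adjusted p = 0.979) or quantile normalization (0.23, limma adjusted p = 0.16).

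**Figure D3:**
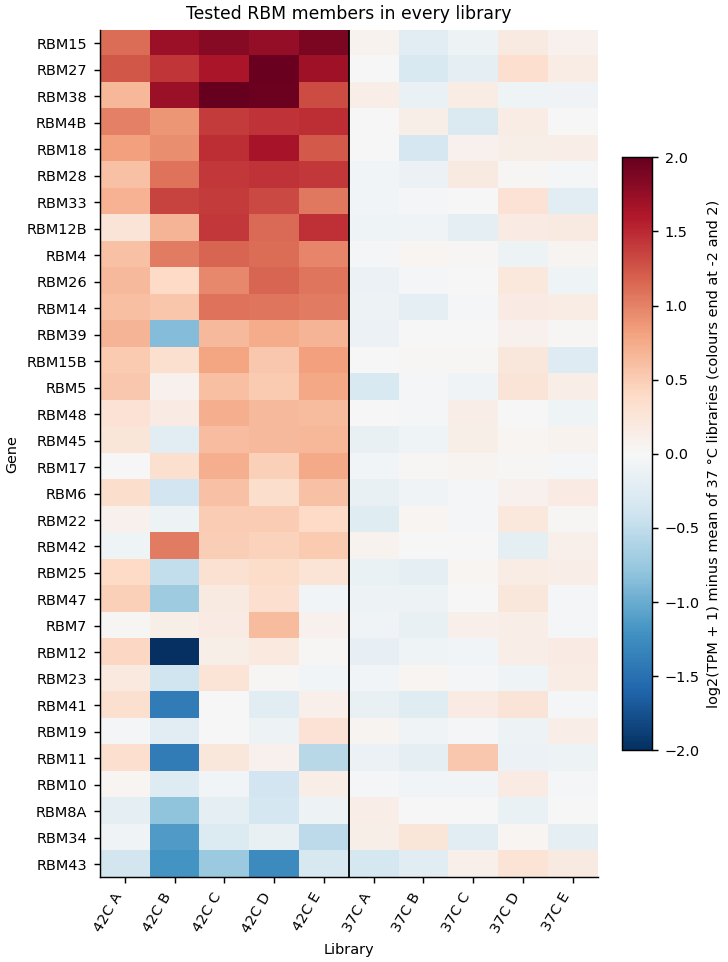
log2(TPM + 1) minus the mean of the 37 °C libraries for the 32 tested members in all 10 libraries, HS libraries on the left, with the colour scale ending at -2 and 2. The 8 risen members are above 0 in every HS column, while 42C B holds 14 members below the thermoneutral range, RBM12 most of all.

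The balance within some pairs of related members also differed between the groups. A ratio of 2 genes within a library does not change when the library is multiplied by a factor, as in median-ratio scaling, though it can under quantile normalization. These pairs were chosen after their values were seen and are given as descriptions, with no test and no share over other pairs of genes. RBM15, RBM27, RBM4B and RBM12B were called higher and their relatives were not, so that higher ratios follow in part from this choice. RBM15 relative to RBM15B was 0.280, 0.385, 0.434 and 0.393 in 42C A, C, D and E, with 0.495 in 42C B, against 0.143 to 0.222 at 37 °C. RBM27 relative to RBM26 was 0.888 ± 0.0638 at 42 °C and 0.536 ± 0.0917 at 37 °C, and RBM5 relative to RBM10 was 0.838 ± 0.105 at 42 °C and 0.516 ± 0.0602 at 37 °C. RBM23 relative to RBM39 went the other way, with 0.200 ± 0.0258 at 42 °C and 0.298 ± 0.0246 at 37 °C. None of these 4 ratios overlapped between the compared groups, although 42C B (0.411) was above both groups for RBM23 relative to RBM39. RBM4B relative to RBM4 was 0.121 ± 0.00940 at 42 °C and 0.0886 ± 0.0134 at 37 °C without overlap, with 42C B (0.0824) inside the thermoneutral range.

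The ratio of RBM12B to RBM12 overlapped between groups, because 42C A (0.301) was below the thermoneutral range of 0.304 to 0.354 and the other compared HS libraries were above it (0.689 to 0.976). The ratio in 42C B was 3.79. The ratios of RBM14 to RBM4 (0.666 at 42 °C and 0.674 at 37 °C) and of RBM5 to RBM6 (2.37 at 42 °C and 2.17 at 37 °C) also overlapped between the groups.

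**Figure D4:**
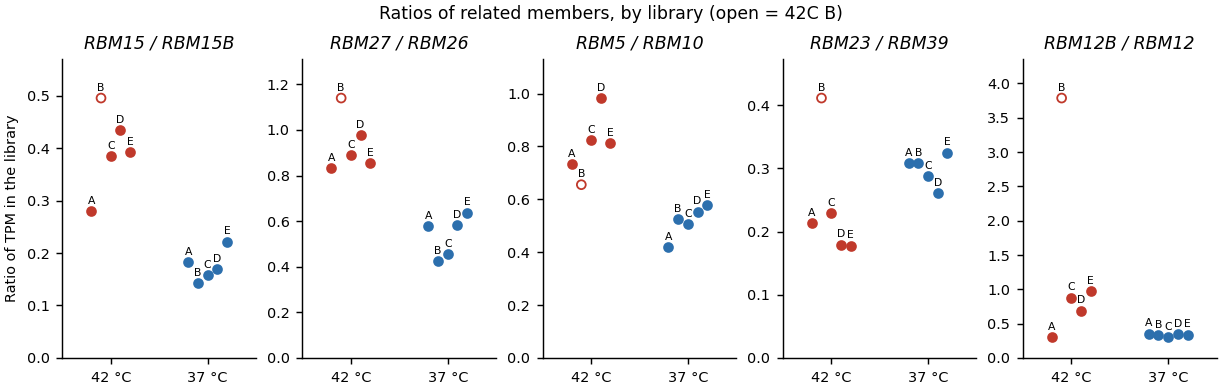
Ratio of TPM of 2 related members within each library, HS (red, 42C B open) left of thermoneutral (blue), each axis starting at 0. RBM15 to RBM15B, RBM27 to RBM26 and RBM5 to RBM10 are higher in the compared HS libraries with no overlap, RBM23 to RBM39 is lower, and RBM12B to RBM12 overlaps through 42C A.

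Genes that work beside the members were taken from 9 lists with 127 genes in the table, of which 125 were tested, 19 rose and 1 fell, to be read against the 15.8% of all tested genes called higher and 7.14% called lower. The share of 19 in 125 is close to that of all genes. The m6A writer complex that RBM15 and RBM15B serve had 6 tested genes, of which 2 rose, and a median difference of 0.78. VIRMA, its scaffold, averaged 47.2 ± 8.61 TPM at 42 °C, against 21.9 ± 3.11 TPM at 37 °C (difference 1.06, limma adjusted p = 0.000135), and CBLL1 had a difference of 1.03. METTL3, the catalytic subunit, averaged 30.8 ± 1.36 TPM at 42 °C, against 16.4 ± 1.38 TPM at 37 °C (difference 0.87, limma adjusted p = 6.84e-05) and was not called. Both calls were lost under median-ratio scaling and without 42C D. Without 37C A or 42C E only VIRMA was called.

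The nuclear exosome and its adaptors, among which RBM7, RBM26 and RBM27 work, had 18 tested genes, of which 2 rose and none fell, with a median difference of 0.19. MTREX, the helicase that feeds RNA to the exosome, averaged 73.4 ± 15.7 TPM at 42 °C, against 30.2 ± 2.93 TPM at 37 °C (difference 1.23, limma adjusted p = 7.12e-05). ZFC3H1, which joins it at polyadenylated RNA, had a difference of 1.14. Neither was called after median-ratio scaling. EXOSC4, a subunit of the exosome, was lower without overlap (-0.82) and not called. It was called lower after median-ratio scaling (-1.16) and with all 10 libraries (-1.07). The exon junction complex and nonsense-mediated decay list, which holds the partners of RBM8A, had 18 tested genes, of which 6 rose and 1 fell, with a median of 0.42. Among those that rose were SMG1 (1.52), SMG8 (1.49), SMG5 (1.21) and UPF2 (1.02), which act in nonsense-mediated decay, and PNN (1.45). SMG5 and UPF2 were not called after median-ratio scaling (0.88 and 0.70) or quantile normalization (0.94 and 0.66). UPF3A, a paralog of UPF3B in the same pathway, fell to 3.28 ± 0.837 TPM at 42 °C, against 9.35 ± 1.02 TPM at 37 °C (difference -1.29, limma adjusted p = 8.38e-05). ACIN1 was also called lower without 42C A (-1.15), with all 10 libraries (-1.10), after median-ratio scaling (-1.25) and after quantile normalization (-1.23), with 19.0 ± 7.70 TPM at 42 °C, against 35.1 ± 5.09 TPM at 37 °C over the compared libraries.

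Among spliceosome lists, the minor spliceosome had 10 tested genes, of which 3 rose, with a median of 0.55. SNRNP48 averaged 40.9 ± 13.1 TPM at 42 °C, against 7.39 ± 0.859 TPM at 37 °C (difference 2.26, limma adjusted p = 2.46e-05), and CENATAC (1.49) and RNPC3 (1.13) were the others. RNPC3 was not called after median-ratio scaling (0.84) or quantile normalization (0.81). Of 20 genes of the PRP19 and catalytic spliceosome list, 3 rose, AQR (1.597), DHX16 (1.45) and PLRG1 (1.01), and of 20 genes of the U2 snRNP list, 1 rose, U2SURP (1.17). PLRG1 and U2SURP were not called after median-ratio scaling (0.67 and 0.84) or quantile normalization (0.82 and 0.82). The U2 snRNP count was 2 without 42C A and without 37C D, the second being SF3B1 (1.03 without 42C A). Ribosome biogenesis had 19 tested genes, of which UTP15 (1.04) and UTP4 (1.003) rose, with a median of 0.12. Both were close enough to the threshold that neither was called without 42C C, D or E, or after median-ratio scaling. UTP15 alone was called without 37C B or 37C D. NPM1 of this list went the other way (-0.74) and was called lower after median-ratio scaling (-1.08). No paraspeckle protein of 10 was called (median -0.09), but PSPC1 was called lower without 42C A (-1.11), with all 10 libraries (-1.27), after quantile normalization (-1.22) and after median-ratio scaling (-1.23), where EWSR1 (-1.21) was called lower too. Of the 4 tested genes with RBM-like names outside the number rule, such as RBMS1 (0.62), none was called.

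The study also named HuR (ELAVL1) and ZC3H14 beside RBM6 as candidate binders of miRNA motifs. ELAVL1, an mRNA-stabilizing protein, averaged 132 ± 23.0 TPM at 42 °C, against 80.8 ± 5.45 TPM at 37 °C (difference 0.69, limma adjusted p = 0.000667) with no overlap. ZC3H14, a poly(A)-binding protein, averaged 57.9 ± 13.6 TPM at 42 °C, against 45.2 ± 2.62 TPM at 37 °C (difference 0.32, limma adjusted p = 0.102). None of the 3 genes was called, and RBM6 had the lowest level of the 3 at both temperatures.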

How the data were processed

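RNA of 10 organoid libraries was sequenced by the authors, who per the study's methods mapped reads to ARS-UCD1.2 in CLC Genomics Workbench and normalized by TMM. Further tools in the submitters' processing notes are DESeq2, Bowtie2 2.2.2 and bcl2fastq, with no role stated. The authors deposited TPM per gene, and every column sums to 1000000. The study reports an average read number per library, but TPM keeps no read count per gene, so no counting interval is given. Strand use in counting is not given in the sources used here, so reads of overlapping antisense genes may be shared.

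With 42C B left out, genes that reached 1 TPM in 4 or more of the 9 libraries were tested on log2(TPM + 1), which understates changes of low genes, with limma 3.58.1 in R 4.3.3 (lmFit, eBayes with trend, two-sided) and Benjamini-Hochberg adjustment over all 12149 genes. TPM are not counts, so that the count model of the study could not be applied. The fit was tested on simulated data.

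Every member is named, with all libraries for those called, for RBM6 and for RBM47, the highest mean over the compared libraries, and further members where they sit near a threshold or a library stands apart. Of the partner lists, called genes are named with ELAVL1 and ZC3H14, except for 1 that is not reported here by name. METTL3, ACIN1, RBMS1, SF3B1, PSPC1, EWSR1, EXOSC4, NPM1 and the ratios were chosen after their values were seen. Members and lists were chosen with earlier results of these data known. Names of all 36 members were found in RefSeq (ARS-UCD2.0), from which names and gene order were used and no coordinates are given.

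Same-lettered libraries share oviducts. Their deviations correlated at 0.125 to 0.369 across genes in the 5 letters, so the letters pair the samples. The main fit had no term for the letter, so its p-values are unpaired and measure the spread between pools of 2 animals within each temperature. Alternatives were other pseudocounts (0.1 and 5), filters, scalings, no trend, no mitochondrial genome, all 10 libraries, a replicate block and each library left out.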

Additional observations from a re-analysis of the deposited data

Results flagged for a closer look

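Each tested member was checked in each group for 1 library whose gap to its nearest neighbour took up most of the group's range (Dixon's ratio). Of 64 groups, 7 had such a library, where chance gives about 1 in 20. Of the 7, 4 were 42C A, the lowest of the 4 compared HS libraries, with 42C B left out of this check: RBM14 (100.8 TPM, other compared libraries 136 to 142), RBM28 (15.4 TPM, others 28.0 to 28.4), RBM42 (89.7 TPM, others 133 to 138) and RBM45 (58.7 TPM, others 76.5 to 78.8). At 37 °C, RBM10 (55.8 TPM, others 47.8 to 48.8) and RBM47 (184 TPM, others 146 to 156) were highest in 37C D, and RBM11 (8.07 TPM, others 4.43 to 4.84) was highest in 37C C. Library 42C B, outside the comparison, held 15 of 32 tested members above every thermoneutral library, against 29.4% of all tested genes.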

How the results depend on the processing

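The 8 members called higher became 5 with a pseudocount of 5 (without RBM12B, RBM28 and RBM33), 4 under median-ratio scaling and 4 under quantile normalization, and 7 to 11 with each library left out. No alternative called a member lower. Over all genes, calls were 884 higher and 487 lower with a pseudocount of 5, 922 and 1438 under median-ratio scaling and 981 higher under quantile normalization. With the replicate block the same 8 members were called, with 1845 genes higher and 849 lower over all, and no member's call changed. A block of 5 pairs with 42C B, chosen after seeing the data, called 7. The partner lists together had 8 genes higher under each of pseudocount 5, median-ratio scaling and quantile normalization, and 0, 6 and 3 lower. They had 4 lower with all 10 libraries and with the 5-pair block, and 1 to 3 with each library left out. For these changes the cause was not tested.

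Members near 0 changed sign. Under median-ratio scaling and quantile normalization the differences were -0.11 and -0.074 for RBM7, -0.26 and -0.31 for RBM11, -0.14 and -0.16 for RBM12, -0.29 and -0.31 for RBM19, -0.22 and -0.25 for RBM23, and -0.16 and -0.10 for RBM41. RBM47 was at -0.11 under median-ratio scaling. With all 10 libraries, and likewise with the 5-pair block, RBM11 was at -0.26, RBM12 at -0.34, RBM19 at -0.015 and RBM41 at -0.23. Without the mitochondrial genome RBM11 was at -0.014 and RBM19 at -0.0040, and with the replicate block, in which 37C B has no partner and adds nothing to the differences, RBM11 was at -0.027 and RBM41 at -0.0036, the same values as without 37C B. With each library left out RBM10 ranged from -0.13 to 0.038, RBM11 from -0.081 to 0.22, RBM19 from -0.045 to 0.083 and RBM41 from -0.032 to 0.14. The lack of read counts per gene limits what can be said of members below 5 TPM.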
